A study of Homo sapiens with 414 samples.

Results

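H9 is an established human embryonic stem cell line, and its single cells are described here as one sample of undifferentiated cells. All cells that carry the H9 single-cell prefix in the titles of the libraries sequenced 24 to a lane were taken, which gave 91 of the 183 single cells of the series. Each cell also has a library sequenced 96 to a lane, so that H9 holds 182 of the 414 libraries, and the shallower library served as a repeat of the sequencing and not of the biology. The H9 cells came from passages 25 to 35 and the 92 cells of H1, another embryonic stem cell line set beside them where stated, from passages 20 to 30. Both lines were kept undifferentiated and were grown in the defined medium E8 on plates coated with Matrigel. Single cells were captured on a C1 microfluidic chip, their RNA was copied into full-length cDNA by the SMARTer chemistry, and indexed Nextera XT libraries were read as 51 bp single ends. The titles give all cells of a line 1 prefix and do not say how many chips or cultures it covers, so line, chip, sequencing run and passage cannot be told apart between H9 and H1. The 91 cells are treated as 1 sample with no replicate, and no p-value is given. Intervals of levels are Poisson intervals at 95% and cover counting error only, since the libraries carry no molecular identifiers. Intervals for shares of cells are exact binomial intervals at 95% that take the cells as independent draws.

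Human embryonic stem cells are held in the undifferentiated state by a network of transcription factors around POU5F1, NANOG and SOX2, which bind together at many of one another's regulatory regions. They depend on FGF signals and on activin or Nodal signals, are kept in what is called the primed state under such conditions, and divide fast with a short G1 phase. Genes of the cell cycle are switched on in order, those of DNA replication at the start of S phase and those of mitosis in G2 and M, so an unsynchronised culture holds cells at every step.

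The libraries at 24 per lane held a median of 3863510 counts on human genes (1568330 to 7758950) and a median of 10774 genes with at least 1 count (9660 to 12218, SD 507). At 96 per lane the medians were 953327 counts and 9852 genes. Spike-in RNA took a median of 4.34% of all counts (2.51% to 12.1%), and mitochondrially encoded genes took 7.39% of human counts (0.539% to 16.8%). Cell 28 had the lowest mitochondrial share and cell 30 the highest spike-in share. Every one of the 91 shallower libraries matched the deeper library of its own cell best.

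Of the H9 cells, 7 stood apart from the other 84. They are cells 88 and 91 to 96 by their numbers in the titles, and they were found by the correlation between cells of log values standardised by gene. Every cell with a pair above 0.2 was taken, so no other pair could lie above 0.2. All 21 pairs among the 7 cells did, at 0.238 to 0.720 (median 0.363), and the highest of the other 4074 pairs was at 0.185. Over the same genes 2 pairs of H1 cells lay above 0.2, the highest at 0.298. At 96 per lane the 21 pairs of the 7 H9 cells lay between 0.250 and 0.701, against 0.172 at most elsewhere in H9. These cells had the 7 highest shares of ribosomal protein genes, 7.23% to 10.9% of human counts, against a median of 4.86% over all 91 cells. RPS29, a protein of the small ribosomal subunit, lay at 322 to 601 counts per 1000000 human counts (CPM; lowest to highest cell, median 445) in the 7 cells and at 60.4 to 187 CPM (median 128) in the other 84, with no overlap. RPL37, of the large subunit, lay at 397 to 770 CPM in the 7 cells (median 670) and at 125 to 337 CPM in the others (median 207), again without overlap. Both were among the genes that rose most in the 7 cells, and how many other genes lack overlap was not counted. RPS18, of the small subunit, did overlap, at 1737 to 2705 CPM in the 7 cells and 751 to 2002 CPM in the others. The histone gene HIST1H4C had a median of 1473 CPM in the 7 cells, against 394 CPM in the others. It overlapped too, at 773 to 2521 CPM, against 19.2 to 1152 CPM. Of 81 ribosomal protein genes, 79 had a higher median in the 7 cells, with a median log2 ratio of 1.01. The 3808 genes compared had a median log2 ratio of -0.11. More of them were at least 2-fold lower in the 7 cells (452) than at least 2-fold higher (197). The lowest log2 ratios, with WDR41 at -4.55 and ZNF512 at -4.09, were larger in size than the highest, HIATL1 at 2.05. WDR41 overlapped, at 0 to 31.1 CPM in the 7 cells and 0 to 359 CPM in the others. The 5 stem cell markers did not set these cells apart, with a median log2 ratio of 0.08. Their human counts (2279530 to 5446200) and genes read (10549 to 12218) lay within those of the other cells or, for genes read, reached the highest value. These cells were found by their expression, so their differences are a description. The part of cell state, capture position and handling in this difference was not tested, and results that rest on these cells are given with and without them.

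**Figure D1:**
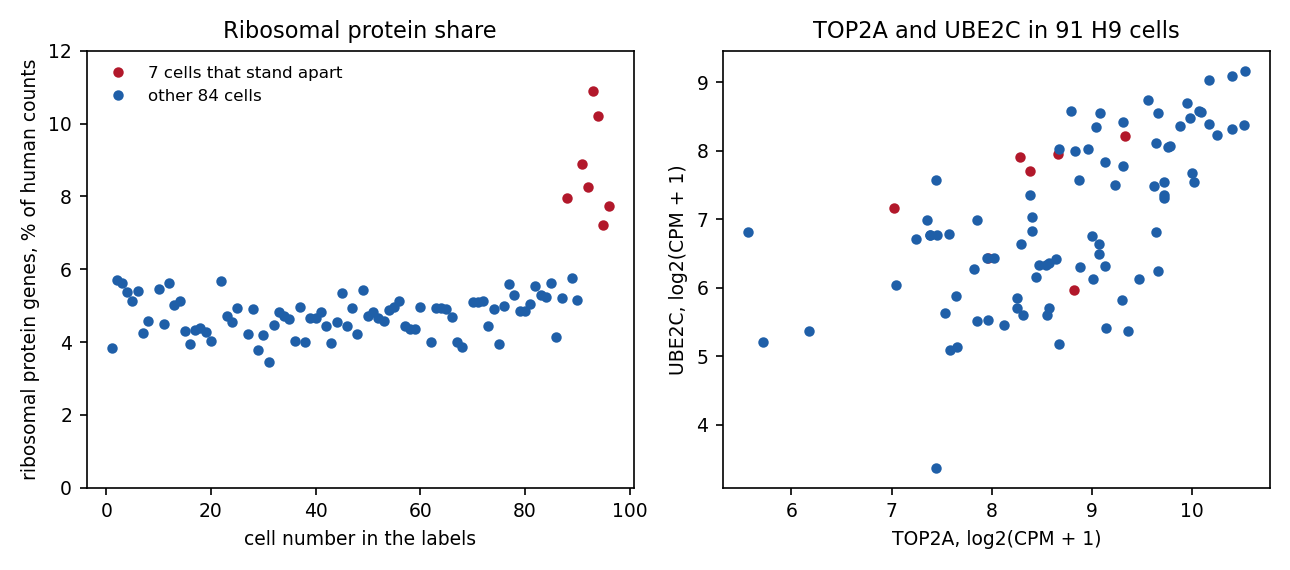
Left, the share of human counts on ribosomal protein genes (y axis, percent) in each H9 cell, ordered by its number in the titles; red points are the 7 cells that stand apart, between 7.23% and 10.9%, and blue points the other 84. Right, TOP2A against UBE2C in the same cells as log2(CPM + 1), with rho 0.62 over 91 cells; the 7 cells lie among the others.

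Levels of 5 marker genes are described here, and all were read in nearly every H9 cell. They were chosen with earlier results of these data known, so they describe the cells and do not check the label. NLRP2 was read in only 5 of 92 cells of H1, also kept undifferentiated, so it does not follow that state in both lines. POU5F1, the octamer-binding factor at the centre of the network, was at 77.3 CPM in the lowest cell, 157 CPM in the median cell and 409 CPM in the highest, and at 163 CPM (interval 162 to 164) over the summed cells, against 166 CPM in summed H1 cells. NANOG, a homeobox factor of the same network, ran over 34.1, 217 and 639 CPM (lowest, median and highest cell). SOX2, the partner of POU5F1 on DNA, ran over 7.21, 42.6 and 155 CPM. These 3 factors were each read in 91 of 91 cells (exact interval for the share 96.0% to 100%), so no H9 cell lacked any of them. Of all 19097 genes, 25.5% were read in all 91 cells. CLDN6, a tight junction protein of early epithelia, was read in all cells too, at 10.5, 113 and 262.4 CPM in the lowest, median and highest cell. NLRP2, a NOD-like receptor protein of oocytes and early embryos, was read in 90 cells, at 0, 54.8 and 193 CPM. Scaled by transcript length to a total of 1000000, which lets genes be set side by side, POU5F1 was at 226, CLDN6 at 153, NANOG at 87.1, SOX2 at 39.9 and NLRP2 at 31.2. POU5F1 and NANOG have near copies in the genome, and how the authors' counting split shared reads is not given in the sources used here.

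**Figure D2:**
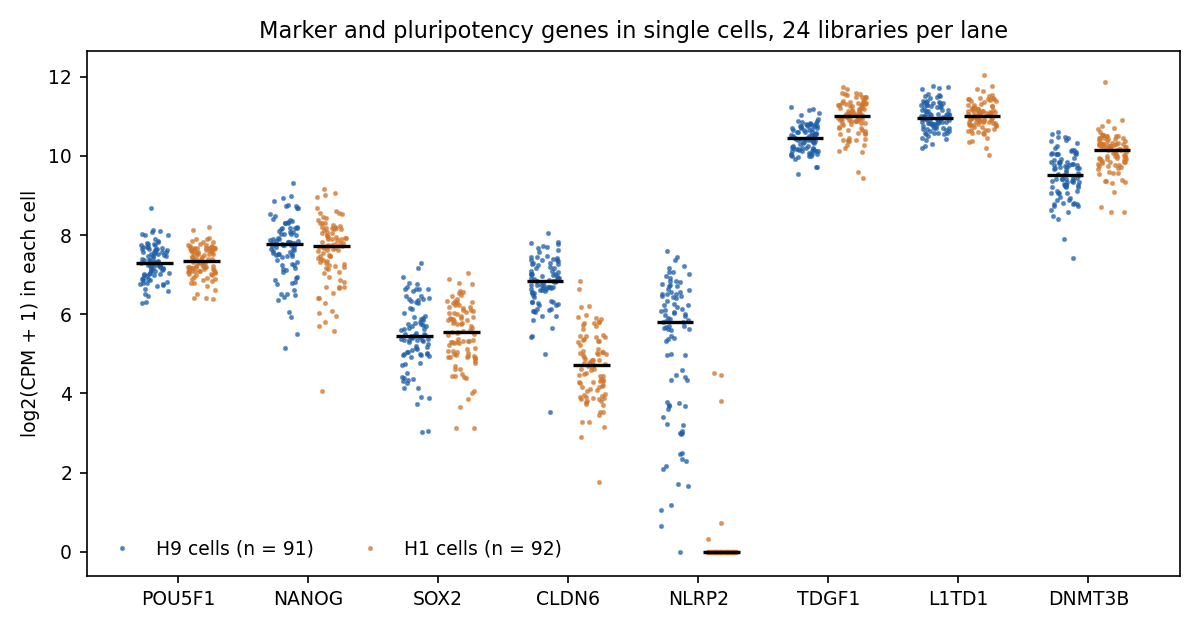
Level in each cell (y axis, log2(CPM + 1)) of the 5 markers and of TDGF1, L1TD1 and DNMT3B, with 91 H9 cells in blue and 92 H1 cells in orange; lines mark medians. CLDN6 and NLRP2 stand higher in H9 (medians 113 and 54.8 CPM) than in H1 (25.2 and 0 CPM), and in all 8 genes the cells of both lines overlap.

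The wider pluripotency programme was read in nearly every H9 cell. Of 20 core genes, 18 were at 10 CPM or more, as were 44.1% of all genes, and 15 were read in all 91 cells. L1TD1, an RNA-binding protein of stem cells, was at 1172, 1981 and 3465 CPM in the lowest, median and highest cell. TDGF1, the co-receptor of Nodal, was at 748, 1405 and 2397 CPM, and TERF1, a telomere-binding protein, at 851, 1760 and 3252 CPM. DNMT3B, the de novo DNA methyltransferase of the primed state, was at 170, 728 and 1548 CPM. The exceptions were FOXD3, a forkhead factor at 4.56 CPM in 79 cells, and UTF1, a chromatin factor at 0.0561 CPM in 5 cells. Of the 16 core genes at 50 CPM or more, 83 of 91 cells had reads on all, and no cell had reads on fewer than 15. Summed over these 16 genes, the level of a cell varied 1.92-fold between the lowest and highest cell (6339 to 12190 CPM), while a single gene of the list varied by a median of 9.39-fold.

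Of the 12 genes of surface proteins used to sort such cells, 12 were at 10 CPM or more, 8 were read in all 91 cells, and the others were CD47 (88 cells), CLDN7 (89 cells), and PROM1 and ALPL (90 cells each). CD24, a sialoglycoprotein, was at 1374, 2445 and 5079 CPM in the lowest, median and highest cell. The tetraspanin CD9 summed to 210 CPM and PODXL, which carries the TRA-1 antigens, to 194 CPM. PROM1, the pentaspan protein CD133, ran over 0, 87.5 and 1101 CPM. Genes of the naive state, an earlier state of pluripotency, were mostly low: 1 of 14 reached 10 CPM. That gene was ARGFX, a homeobox gene, with 17.8, 48.0 and 119 CPM. TFCP2L1 summed to 8.04 CPM, TFAP2C to 4.24 CPM and DPPA3 to 2.44 CPM, and DNMT3L and ALPPL2 had no read in any cell.

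Markers of other cell types were searched in the same way, and their defining factors were at or near 0. In the endoderm list of 14 genes, SOX17, GATA4, GATA6, FOXA1, EOMES, HHEX and TTR were at 0, and 8 members had no cell with a count. FOXA2, a forkhead factor of endoderm, had the highest sum with 2.36 CPM in 35 cells. The summed list came to 0, 1.15 and 76.8 CPM in the lowest, median and highest cell. The mesoderm list of 18 came to 0.253, 43.2 and 366 CPM, most of it from KDR, the receptor of vascular endothelial growth factor, at 50.2 CPM in 90 cells. MESP1, EOMES, HAND1, GSC, FOXF1 and MEOX1 were at 0, and T was read in 3 cells. The neural ectoderm list of 16 came to 1.35, 138 and 660 CPM through the cytoskeletal genes TUBB3 (64.4 CPM), DCX (35.3 CPM), NES (23.3 CPM) and MAP2 (15.5 CPM). The neural factors PAX6, at 1.12 CPM in 13 cells, and SOX1, at 0.0841 CPM in 3 cells, were near 0. The trophoblast and amnion list of 15 came to 0, 1.52 and 283.5 CPM, and GABRP, a receptor subunit gene, had 7.91 CPM. ISL1, a LIM homeobox factor, had 5.81 CPM in 6 cells, and 82.2% of it came from cell 30 alone. The fibroblast list of 14 came to 72.6, 205 and 551 CPM, mostly from THY1 (188 CPM), which stem cells carry too, with COL1A2 at 20.8 CPM and with COL3A1, LUM, FAP and PRRX1 at 0. The blood and endothelium list of 14 came to 13.6, 79.6 and 346 CPM through KDR, LYZ (31.3 CPM) and PECAM1 (9.42 CPM), while GATA1, HBE1, HBG1 and CD14 were at 0. LYZ and PECAM1 were read in all 91 H9 cells and all 92 H1 cells.

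By level scaled for transcript length, the nuclear gene at the head of the H9 transcriptome was EEF1A1. EEF1A1, the elongation factor that brings tRNA to the ribosome, was at 12930, followed by ACTB (7871), GAPDH (7452), MTRNR2L8 (7450) and NPM1, a nucleolar chaperone (5850). H3F3B, RPL41, FTL, RPL15, LDHB, PTMA, H2AFZ, RPS18, HSP90AB1 and RPL5 followed between 5345 and 3820. The 10 genes with the most counts held 9.52% of all counts, the first 100 held 26.5% and the first 1000 held 59.7%. MTRNR2L8 is a nuclear copy of mitochondrial ribosomal RNA, and reads of the mitochondrial gene and its copies may be shared between them.

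Signalling genes differed in how many cells read them, and ligands of the Nodal family were read in part of the cells. In the Nodal list SMAD2, the signal carrier, was at 322 CPM, the receptor ACVR2B at 178 CPM and the repressor SKIL at 1717 CPM, each in all 91 cells. The ligand NODAL was at 20.4 CPM in 40 cells (0 to 201 CPM), the ligand GDF3 at 22.6 CPM in 75 cells, and the Nodal inhibitor LEFTY1 at 12.6 CPM in 54 cells (0 to 97.4 CPM). In the FGF list DUSP6, a phosphatase induced by ERK signalling, was at 55.8, 691 and 1704 CPM in the lowest, median and highest cell. FGFR1 was at 183 CPM, and FGF2, the ligand that E8 medium also supplies, at 70.9 CPM in all 91 cells, while FGF4 had no read. In the WNT list CTNNB1, which encodes beta-catenin, was at 284.2 CPM, the secreted antagonist SFRP2 at 280 CPM, and the receptor FZD3 at 143 CPM. Of the WNT targets in the list, ZNRF3 was at 12.2 CPM and NKD1 at 6.10 CPM in all 91 cells, AXIN2 at 9.21 CPM in 49 cells, LEF1 at 0.101 CPM in 4 cells and T at 0.0168 CPM in 3 cells.

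Metabolic lists were read almost completely. All 18 glycolysis genes and all 27 nuclear genes of oxidative phosphorylation were at 10 CPM or more. ENO1, the enolase of glycolysis, summed to 3637 CPM and ATP5B, the beta subunit of ATP synthase, to 1723 CPM. In serine synthesis PSAT1 was at 896 CPM and PHGDH, the first enzyme, at 379 CPM. In cholesterol synthesis FDFT1, which makes squalene, was at 1041 CPM and HMGCS1 at 662 CPM. The 13 mitochondrially encoded genes summed to values between 5387 CPM in cell 28 and 167546 CPM in the highest cell (median 73918.5 CPM), with MT-CO1 at 20150 CPM over all cells.

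The members of the stress lists differed in how many cells read them. HSPA8, the constitutive HSP70, was at 2927 CPM, HSP90AB1 at 5250 CPM and the heat-inducible HSP90AA1 at 2531 CPM, each in all 91 cells. The heat-inducible HSPA1A was at 8.59 CPM in 54 cells, and reads may be shared with its near copy HSPA1B. In the hypoxia list, 13 of 18 genes were at 10 CPM or more. HIF1A was at 407 CPM, and of its targets BNIP3L was at 113 CPM, PDK1 at 91.1 CPM, ADM at 74.5 CPM, VEGFA at 2.00 CPM and CA9 at 0.350 CPM. Among p53 targets CCNG1 was at 747 CPM, PMAIP1 at 556 CPM and MDM2 at 298 CPM, each in all 91 cells, and the cell cycle inhibitor CDKN1A was at 0.255 CPM, read in 6 cells. HSPA5, the chaperone of the endoplasmic reticulum, led the unfolded protein list by counts with 633 CPM. EGR1 (61.1 CPM) and MYC (49.6 CPM) led the immediate-early list by counts, and FOSB was at 0. Of the list of MHC class I and interferon genes, IFITM3 was at 350 CPM and B2M, the light chain of class I, at 134 CPM, both in all cells. The IFITM genes are near copies of each other, so the split of reads among them is uncertain.

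Among 12 DNA methylation genes, DNMT3B (800 CPM), DNMT3A (429 CPM), DNMT1 (180 CPM) and the demethylation genes TDG (196 CPM) and TET1 (160 CPM) were read in all 91 cells. Among 18 imprinted genes, SNRPN (735 CPM) and MEST (368 CPM) were read in all cells. SNRPN and SNURF (755 CPM) overlap, so their counts cannot be told apart. PEG3, a zinc finger gene expressed from the paternal allele, had no read in any H9 cell at either depth, against 98.9 CPM in H1, where 91 of 92 cells read it. With a floor of 3 counts over the summed H9 cells (0.00841 CPM), PEG3 was at least 11755-fold lower in H9 than in H1.

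How many cells read a gene followed its level. At 24 per lane 4868 genes were read in all 91 cells, 10835 in at least 46 cells and 2715 in none. In the shallower libraries the numbers were 3263, 9925 and 3085. Genes at 1 to 3 CPM were read in a median of 30 cells, or 21 in the shallower libraries, and 64.4% of the calls of the deeper library were made again in the shallower one of the same cell. Genes at 30 to 100 CPM were read in a median of 91 and 89 cells, with 97.2% of calls repeated. Genes at 3 to 10 CPM were read in a median of 59 cells, and of 47 in the shallower libraries. The part of depth, of capture and of expression in a missing read was not tested.

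**Figure D3:**
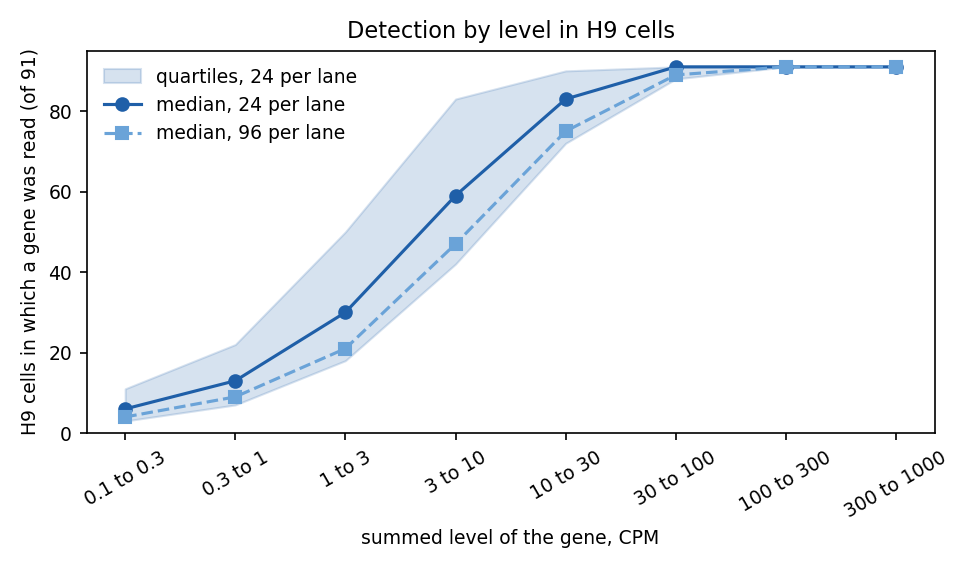
Number of H9 cells in which a gene was read (y axis, of 91) for genes grouped by summed level (x axis, CPM), as medians for both depths; the band spans the quartiles at 24 per lane. The medians climb over 30, 59 and 83 cells for genes at 1 to 3, 3 to 10 and 10 to 30 CPM and reach 91 cells above that, and the shallower libraries lie below at each step up to 100 CPM.

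Some genes were high in few H9 cells. Of those read in at most 22 cells, the 10 with the most counts summed to 6.10 to 11.9 CPM. TMEFF1, a transmembrane protein, was at 11.9 CPM in 13 cells, with 42.3% of it in cell 52. ZNF699, a zinc finger gene at 7.32 CPM, was read in 13 cells, and cell 30 held 91.1% of its summed level. OSBPL6, an oxysterol-binding protein at 8.64 CPM in 16 cells, had 82.3% in cell 30. GABRG1, a GABA receptor subunit at 6.13 CPM in 5 cells, had 86.4% in cell 45. These sums therefore stand largely on single cells, and cell 30 is also the one with the highest spike-in share. The other genes by this rule were RGPD1, PTCD1, KAT2B, PRKD1, RIN2 and PCDHAC2, read in 17 to 22 cells, and RGPD1 is one of a family of near copies. PTCD1 was read in 21 cells, and in 9 by the shallower libraries.

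Cell-to-cell spread was measured as the squared coefficient of variation of a gene over cells, as a log2 ratio to genes of like level. Of 8481 genes at 10 CPM or more, 475 (5.6%) were at least 2-fold above genes of like level, and 0 of 18 core pluripotency genes were among them (median -0.11). The mitotic list had 9 of 39 such genes (median 0.49) and the mitochondrially encoded list 9 of 13 (median 1.11, against 2.55 in H1). The core count is near the share over all genes. In the mitotic list the other 30 genes did not reach 2-fold, and 4 of the mitochondrially encoded genes did not. Among genes at 50 CPM or more, ARRDC3, an arrestin-domain protein, had the highest spread (2.80), with 0, 100.5 and 1969 CPM in the lowest, median and highest cell, and came to 1.63 without its highest cell, where AASS (2.72), HIST1H4C (2.40) and SHISA2 (2.12) stood above it. AASS, which starts the breakdown of lysine, followed with 2.60 (19.7, 420 and 2294 CPM). HIST1H4C, a replication-dependent histone, had 2.46 (19.2, 423 and 2521 CPM) and was one of the genes higher in the 7 cells above. Without those cells its spread was 1.46. Of 17 such histone genes, 3 were at 10 CPM or more, and histones of this class are near copies whose messages mostly lack a poly-A tail. SHISA2, a membrane protein of the Shisa family, had 2.36 (2.01, 311 and 2594 CPM). FTH1, the ferritin heavy chain, had 1.94 (181, 467 and 2762 CPM), and KPNA2, an importin that peaks in G2 and M, had 1.82 (500, 1406 and 4225 CPM). SERPINB9, an inhibitor of granzyme B at 2.40 (4.57, 44.9 and 1300 CPM), took 26.1% of its level from cell 52 and fell to 0.35 without its highest cell. B4GALT6 (1.94) came to 0.51 and HBP1 (1.94) to 0.73 without their highest cells. MAP4K3, CLDN12 and TMEM64 were between 1.97 and 1.73.

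The correlation of genes from cell to cell was taken as Spearman rho over the 91 cells, for 3808 genes at 50 CPM or more read in at least 46 cells. All points come from 1 line under 1 title prefix, and the values of a cell share its library total. The 7248528 pairs had a median rho of 0.01, 3765537 of them were above 0, and 2835 (0.0391%) reached 0.5. Without the 7 cells that stand apart, 1467 pairs did, and with TMM scaling of the totals 5293 pairs did. Of the 1872 pairs at 0.5 or more at both depths, 1701 (90.9%) were at 0.3 or more over the H1 cells as well, against 0.917% of all pairs.

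**Figure D4:**
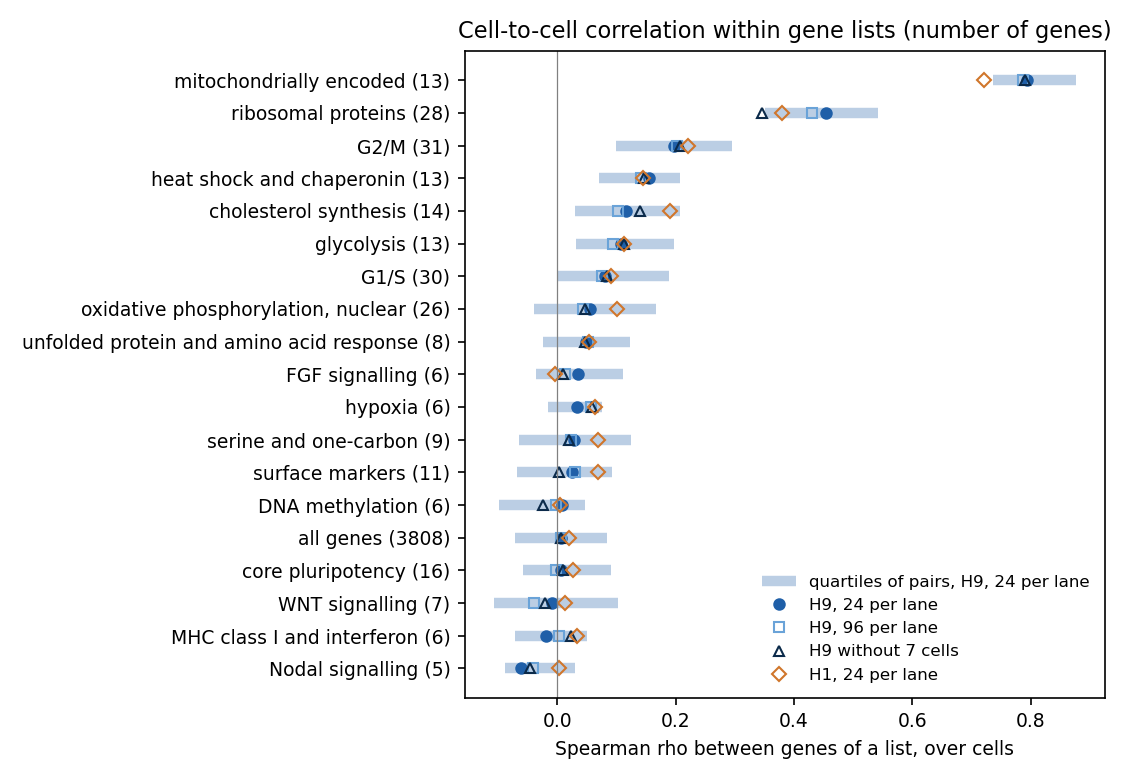
Median Spearman rho between the genes of each list over cells (x axis), with the number of genes in brackets; circles are H9 at 24 per lane, squares H9 at 96 per lane, triangles H9 without 7 cells and diamonds H1, and bars span the quartiles of H9 pairs. The mitochondrially encoded list (0.79), ribosomal proteins (0.45) and G2/M (0.20) have the highest H9 medians, and the core pluripotency list lies at 0.01.

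Genes of mitosis were correlated with each other among H9 cells. The 31 G2/M genes had a median rho of 0.20 (0.20 at 96 per lane, 0.21 without the 7 cells, 0.22 in H1), 426 of 465 pairs were above 0, and 10 pairs (2.15%) reached 0.5. AURKA, the kinase of the spindle poles, and CKS2, a subunit of cyclin-dependent kinases, had rho 0.65 (0.49 in H1). TOP2A, which untangles chromosomes, and UBE2C, the ubiquitin-conjugating enzyme of the anaphase-promoting complex, had 0.62 (0.63 in H1). CDK1 and the motor protein gene KIF23 had 0.57 (0.53 in H1). TOP2A ran over 46.3, 453 and 1477 CPM in the lowest, median and highest cell and UBE2C over 9.33, 112 and 575 CPM. The cells thus differed in TOP2A and UBE2C over more than an order of magnitude. So they did in NANOG (34.1 to 639 CPM) and SOX2 (7.21 to 155 CPM), while POU5F1 ran from 77.3 to 409 CPM.

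Genes of the G1 to S transition formed a weaker block that ran against the mitotic one. The 30 genes had a median rho of 0.08, and 324 of 435 pairs were above 0. CDC6, which loads the replicative helicase, and the exonuclease gene EXO1 had rho 0.48 (0.03 in H1), and UNG, a uracil glycosylase, and DTL, which directs the destruction of licensing factors, had 0.48 (0.27 in H1). Over the cells, the mean standardised level of the G1/S list correlated at -0.36 with that of the G2/M list, and at -0.38 without the 7 cells. When the cells were ordered by 5 mitotic genes (KPNA2, AURKA, TOP2A, UBE2C and CKS2), 26 of the other 27 G2/M genes had rho above 0 with the order (median 0.36), against 4 of 30 G1/S genes (median -0.23) and 2020 of 3808 genes in all (median 0.01). In the 10 cells highest in these 5 genes, TTK, a spindle checkpoint kinase, had a median of 292.1 CPM, against 25.9 CPM in the 10 lowest. CDCA8, of the chromosomal passenger complex, had 102 CPM, against 6.32 CPM. CDC20 (181 CPM, against 238 CPM), BIRC5 (316 CPM, against 447 CPM) and ECT2 (204 CPM, against 217 CPM) of the same list had lower medians in the 10 highest cells. DTL had 35.7 CPM in the 10 highest cells, against 244 CPM in the 10 lowest. CCNE2, a cyclin of the G1 to S transition, had 0.254 CPM, against 24.1 CPM, and a median of 4.758 CPM over all cells. CDC6 (83.42 CPM, against 183.7 CPM), UNG (79.48 CPM, against 129.2 CPM) and PCNA (183.9 CPM, against 282.8 CPM) were lower too, by smaller ratios. MCM3 differed little (572.1 CPM, against 631.3 CPM). The histone gene HIST1H4C went the other way (282.5 CPM, against 197.4 CPM), with rho 0.00301 to the order. The 5 mitotic genes were chosen on these cells, so the order is a description.

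**Figure D5:**
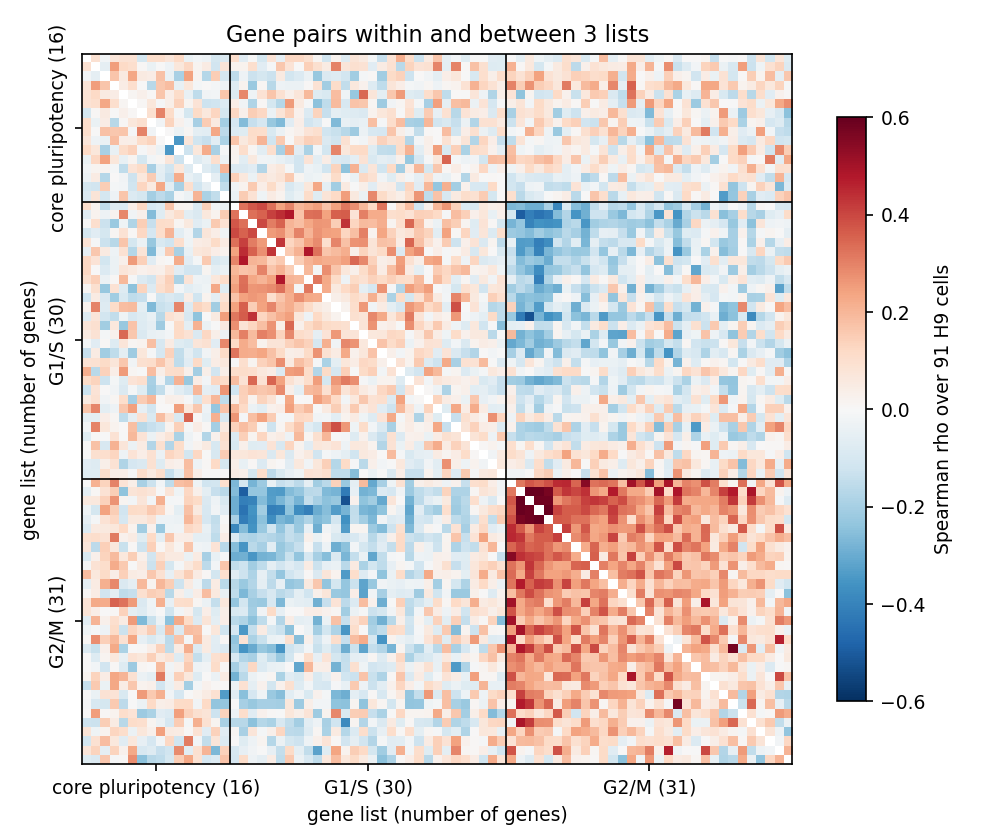
Spearman rho over 91 H9 cells (colour, red above 0 and blue below) between the genes of 3 lists: 16 core pluripotency genes, 30 G1/S genes and 31 G2/M genes, each sorted by its median rho within its list. The G2/M block is red (median 0.20), the G1/S block paler (median 0.08), the field between them mostly blue, and the core block shows no common sign (median 0.01).

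The promoters of 3 of the mitotic genes and 2 of the G1/S genes are shown, to set the letters before their starts side by side. Late cell cycle promoters often hold CCAAT boxes, bound by NF-Y, and a cell cycle homology region (CHR), bound by the MuvB complexes, while E2F boxes are typical of genes of the G1 to S transition. CCAAT, the CHR letters TTTGAA and TTTAAA, and the E2F letters TTTCCCGC, TTTCGCGC, TTTGCCGC and TTTGGCGC were searched on both strands in the 250 bases before the start, in RefSeq promoters on GRCh38.p14. The promoter of CKS2 lies at chr9:89310945-89311194 (+ strand), that of KPNA2 at chr17:68035485-68035734 (+ strand) and that of TOP2A at chr17:40417897-40418146 (- strand). The promoter of CDC6 lies at chr17:40287629-40287878 (+ strand) and that of DTL at chr1:212035498-212035747 (+ strand). Each is written 5′ to 3′ on the strand of its gene and ends at the base before the start. Capitals mark CCAAT, CHR and E2F letters on either strand.
CKS2: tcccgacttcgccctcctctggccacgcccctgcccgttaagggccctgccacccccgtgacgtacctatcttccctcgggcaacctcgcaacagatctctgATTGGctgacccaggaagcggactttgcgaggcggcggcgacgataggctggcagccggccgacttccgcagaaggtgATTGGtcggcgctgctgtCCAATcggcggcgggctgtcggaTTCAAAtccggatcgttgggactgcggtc
KPNA2: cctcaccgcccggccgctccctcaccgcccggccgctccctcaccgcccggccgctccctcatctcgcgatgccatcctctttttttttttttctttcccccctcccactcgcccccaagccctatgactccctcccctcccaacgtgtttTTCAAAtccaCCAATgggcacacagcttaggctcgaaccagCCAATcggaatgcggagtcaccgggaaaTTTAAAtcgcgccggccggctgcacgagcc
TOP2A: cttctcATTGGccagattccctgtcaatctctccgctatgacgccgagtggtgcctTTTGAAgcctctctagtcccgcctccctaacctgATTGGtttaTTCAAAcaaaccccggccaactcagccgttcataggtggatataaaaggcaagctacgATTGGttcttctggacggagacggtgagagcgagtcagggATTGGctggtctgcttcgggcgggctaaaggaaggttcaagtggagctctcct
CDC6: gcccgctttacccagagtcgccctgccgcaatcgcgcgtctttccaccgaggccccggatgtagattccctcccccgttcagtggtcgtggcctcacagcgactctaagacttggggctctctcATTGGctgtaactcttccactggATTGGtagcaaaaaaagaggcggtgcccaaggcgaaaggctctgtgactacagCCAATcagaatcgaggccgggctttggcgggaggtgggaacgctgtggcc
DTL: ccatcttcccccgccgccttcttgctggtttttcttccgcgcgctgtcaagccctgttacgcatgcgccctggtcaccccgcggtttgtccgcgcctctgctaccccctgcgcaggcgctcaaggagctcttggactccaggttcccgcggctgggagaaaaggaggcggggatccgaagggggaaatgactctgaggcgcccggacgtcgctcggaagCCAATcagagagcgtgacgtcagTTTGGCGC
CKS2 holds 3 CCAAT boxes and the CHR letters TTCAAA 29 bases before its start, and KPNA2 holds 2 CCAAT boxes and TTTAAA 30 bases before its start. TOP2A holds 4 CCAAT boxes, with CHR letters 194 and 151 bases before the start. CDC6 holds 3 CCAAT boxes and DTL holds 1, with TTTGGCGC 8 bases before its start, and neither has CHR letters. UNG and EXO1, the other G1/S genes named above, hold none of the letters searched in this window. Of the G2/M genes with a promoter in the table (26 of 31), 21 (80.8%) held CCAAT, 20 (76.9%) held CHR letters and 17 (65.4%) held both CCAAT and CHR. Of the G1/S genes (25 of 30), 19 held CCAAT, 2 held CHR letters and 10 held E2F letters. Of the 3195 genes of the correlations with a promoter in the table, 38.3% held CCAAT, 14.55% CHR, 5.07% E2F and 6.35% both CCAAT and CHR. Of all 27305 promoters, 33.04% held CCAAT, 22.1% CHR, 2.79% E2F and 7.85% both CCAAT and CHR. A match describes the letters and does not show that a factor is bound.

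Core pluripotency genes did not move together among the H9 cells. Their 16 genes had a median rho of 0.01 over 120 pairs, with the pairs lying between -0.35 and 0.30. Of the 120 pairs 63 were above 0, near the share over all pairs (3765537 of 7248528). The highest pair was NANOG with L1TD1 (0.30, and 0.07 in H1), and the lowest SALL4 with LIN28A (-0.35, and -0.12 in H1). POU5F1 and SOX2 had rho 0.15, POU5F1 and NANOG 0.06, and NANOG and SOX2 0.10. CLDN6 and CLDN7, both claudins, had 0.27 (0.22 in H1). The closest partners of the 5 markers among all 3808 genes were weak too. Among them were, for POU5F1, VCP, SS18 and BBX, for NANOG RBBP6, ACTR2 and TDG, for SOX2 ZNF330, SPAG5 and ATP6V1D, for CLDN6 MAK16 and HSPA9, and for NLRP2 SRSF5, ETV4 and ITM2C. Their rho was 0.34 to 0.42 in H9 and -0.17 to 0.25 in H1, and with 3808 genes searched for each marker these values are a description only.

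Of the metabolic and stress lists of nuclear genes, glycolysis, cholesterol synthesis and heat shock had the highest medians, and the pair named for each is its highest. The others lay nearer the core list. Their medians were 0.06 for nuclear oxidative phosphorylation, 0.05 for p53 targets and for the unfolded protein list, 0.03 for hypoxia and for serine and one-carbon genes, and -0.02 for MHC class I and interferon genes. GAPDH and ENO1 of glycolysis had rho 0.56 (0.54 in H1), and the 13 glycolysis genes had a median of 0.11. HMGCS1 and EBP of cholesterol synthesis had 0.47 (0.32 in H1), with a list median of 0.12 (0.19 in H1). HSPD1 and HSPE1, the mitochondrial chaperonin and its cofactor, had 0.43 (0.26 in H1), with a list median of 0.16. The mean standardised level of the heat shock list correlated at -0.49 with that of the mitochondrially encoded list, and at -0.53 without the 7 cells. Levels in CPM share a total, so a larger mitochondrial share lowers every other gene, and its part in this value was not tested.

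The highest correlations of all joined genes into a few groups. Links of rho 0.6 or more at both depths numbered 575 and formed 14 groups. The largest held 51 genes, 46 of them ribosomal proteins such as RPLP1, RPS18 and RPS6, and without the 7 cells that stand apart 9 genes of ribosomal proteins remained linked. The ribosomal protein list had a median rho of 0.45 in all 91 cells, 0.35 without the 7 cells and 0.38 in H1. A further group held 20 genes, the 13 mitochondrially encoded ones and nuclear MTRNR2L copies of mitochondrial ribosomal RNA (MT-CO3 with MTRNR2L8 0.91, which share no stretch of 51 bases). One of 15 genes held PFN1, an actin-binding protein, with RANBP1, FTH1, COX5A, EIF3F, RPS2, EIF5A and RPL13 (median rho of its links 0.57 in H1). The mitotic group of 5 genes is the one used above to order the cells.

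Another pair of groups held genes of varied known functions. One of 32 genes held TLCD2, ORAI2, SPN, CFLAR, ODF2L, SHISA9 and ASTN2, with 173 links that had a median rho of 0.70 in H1. The other held C6orf99, CASP10, DNAL1, DYX1C1, HHLA3 and PRELP, all 15 pairs linked, with a median of 0.93 in H1. PRELP, a matrix protein of connective tissue, and CASP10, a caspase, were read in all 91 H9 cells and had rho 0.95. ASTN2, known from neuronal migration, had 0.92 with SCD5, a fatty acid desaturase, and 0.91 with MAB21L3. Stretches of 51 bases, the read length, were compared between transcripts on either strand in GENCODE 29. Of the 31 genes of the larger group with transcripts, 24 share such a stretch with another member, and so do 4 of 5 in the smaller group. Of the 3784 genes of the correlations with transcripts, 1859 (49.1%) share one with any other of these genes, a wider choice of partners. Of linked pairs, 17 of 158 (10.8%) in the larger group and 3 of 10 (30.0%) in the smaller one share one directly, CASP10 with PRELP and ODF2L with TMEM212 among them. ASTN2 shares none with SCD5 or MAB21L3, and of the 400 highest pairs 22 share a stretch and 345 do not. The share was 0.297% over all pairs and 0 in the ribosomal, PFN1 and mitotic groups. The part of shared reads in these correlations was not tested, and levels of these genes are uncertain for that reason.

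The leading difference among H9 cells was the ribosomal protein share. The first principal component held 4.97% of the variance and had rho 0.92 with that share, with RPL35A, RPLP1 and RPS7 at its high end and BCAT1 and SCD5 at its low end. Without the 7 cells that stand apart, the first component held 4.42% of the variance and had rho 0.30 with the ribosomal share and -0.90 with the spike-in share. Cell 30 alone held 69.9% of the squared scores of that component. The second component over all cells held 4.12%, with rho -0.84 to the spike-in share and 0.78 to the number of genes read, and cell 30 alone held 67.7% of its squared scores. Without cells 28 and 30, the second component held 3.44%, with rho 0.13 to the spike-in share and 0.57 to the mitochondrial share.

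Most genes differed by less than 2-fold between H9 and H1, and the marker genes CLDN6 and NLRP2 were among the exceptions. With 10 CPM required in at least one of the lines, 8851 genes were compared. H9 exceeded H1 2-fold or more in 197 of them (2.23%) and stayed 2-fold or more below it in 162 (1.83%), with a median log2 ratio of -0.02. None of the 18 core pluripotency genes compared passed 2-fold, with ratios between -0.78 for SALL4 and 0.60 for ZSCAN10. CLDN6 was at 121 CPM in H9, against 29.1 CPM in H1 (4.17-fold). NLRP2 was at 56.8 CPM in H9, read in 90 of 91 cells, against 0.698 CPM in H1, read in 5 of 92 cells (81.3-fold). TDGF1 was at 1422 CPM in H9, against 2118 CPM in H1, and DNMT3B at 800 CPM, against 1151 CPM, both inside 2-fold. LEFTY1 was at 12.6 CPM in H9, against 2.45 CPM in H1. Of the MHC class I and interferon list 11 of 12 genes were above 0 (median log2 ratio 0.39), with TAP1, the peptide transporter, at 10.9 CPM in H9, against 3.86 CPM in H1. All 13 mitochondrially encoded genes were above 0 (median 0.36). TEK, the angiopoietin receptor, was at 0.813 CPM in H9, against 18.9 CPM in H1, and the linker histone HIST1H1A at 3.89 CPM, against 33.1 CPM. CTGF, a matricellular gene of the immediate-early list, was at 13.9 CPM, against 43.2 CPM. With 1 sample a line these are sizes only.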

How the data were processed

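RNA was measured in single cells of H9, with H1 cells set beside them. The deposited values are expected counts of each gene, which the authors made with RSEM 1.2.3 and Bowtie 0.12.8 on hg19 after base calling with CASAVA 1.8.2, per the submitters' processing notes. The annotation is not given in the sources used here. The 92 spike-in rows were left out, and levels are counts per 1000000 counts (CPM) over 19097 human genes. A gene was read in a cell at a rounded count of 1 or more. Spread is the log2 ratio of the squared coefficient of variation to the median of the 101 nearest genes. Correlations are Spearman rho of log2(CPM + 1). Cells were summed per line for ratios, with 2-fold as the limit. Length-scaled levels used GENCODE 29 transcripts, which gave a length for 98.1% of genes. That build differs from hg19, so it served for names, lengths, stretches and promoters only.

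The members and the 29 gene lists were chosen with earlier results of these data known. Named were the 5 markers, the 15 highest genes per length, the 4 members with the highest CPM in a list, the 10 highest genes read in at most 22 cells, the 12 widest genes, the 12 highest pairs and the groups of linked genes. Genes outside these were named after their values were seen. A few genes that the rule names are not reported here. Alternatives were the other depth, thinning, other measures, scalings (TMM from edgeR 4.0.16) and filters, and cells left out. The computation was tested on simulated data. Python 3.11.15, numpy 2.4.6, pandas 2.3.3, scipy 1.17.1 and R 4.3.3 were used.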

Additional observations from a re-analysis of the deposited data

How the results depend on the processing

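Of 142 alternatives for 23 main results, 129 stayed close to the reported value and 13 moved. Close meant within 0.1 for rho, within 1.5 times for counts and on the same side of 2-fold for log2 values. A reversal was looked for only in log2 values of 2-fold or more, and 0 were found there. Other values could change sign and still count as close. The median rho of the core pluripotency list did so (0.0055, and -0.0029 at 96 per lane). Genes read in every H9 cell came to 3196 after thinning to the totals at 96 per lane and to 3212 with at least 5 counts. The median rho of ribosomal proteins was 0.574 as Pearson r of log2(CPM + 1), 0.575 with 10 added and 0.346 without the 7 cells that stand apart. Pairs at 0.5 or more numbered 8415 and 8566 with those Pearson measures, 5293 with TMM scaling, 44637 over 8430 genes at 10 CPM or more, and 1467 without the 7 cells. With a minimum of 1 CPM, 905 genes were at least 2-fold higher and 610 at least 2-fold lower in H9 than in H1. The rho of the first component with the ribosomal protein share was 0.2998 without the 7 cells. The cause of these shifts was not tested, except that a lower minimum admits more genes. For single genes, a level was held to its counting interval and a spread or line ratio to its side of 2-fold, and 18 of 98 alternatives crossed these limits. Most of the 18 were levels of the 5 markers, and for POU5F1 and NLRP2 every alternative level lay outside the interval. POU5F1 came to 159.9 CPM at 96 per lane and 176.1 CPM without mitochondrially encoded genes in the totals, against an interval of 162 to 164 CPM. Leaving out the 7 cells, and computing totals without mitochondrially encoded genes in the comparison of lines, were chosen after seeing the data. Replicates could not be left out in turn, since each line is 1 sample. No paired analysis was possible because the results come from no test. Genes at 3 to 10 CPM were read in fewer cells at the lower depth (a median of 47, against 59), so counts of cells for such genes hold for the depth they were taken at.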
